A study of Homo sapiens with 38 samples.

Results

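The peroxisome genes described here were 35 genes of organelle assembly, membrane transport, fatty acid oxidation and ether lipid synthesis. They were chosen by name, and all 35 were found in the guide tables of both cell lines and in the RNA count table, out of 18025 genes in both guide tables and 58735 genes in the RNA table. Peroxisomes are small organelles bounded by a single membrane. They import folded enzymes through PEX proteins, shorten very long and branched fatty acids that mitochondria do not accept, and make the first ether-linked precursors of plasmalogens. Liver cells are rich in them, and fatty acids switch on many of their genes through the nuclear receptor PPARA. Plasmalogens carry polyunsaturated chains, so the ether lipid genes are also studied in ferroptosis, the iron-dependent death by lipid peroxidation that erastin induces.

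In the CRISPR screens, Cas9-expressing Hep3B and SNU-398 cells, both human hepatocellular carcinoma lines, carried the TKOv3 knockout library. Pools were grown for 14 days with Sorafenib, Regorafenib or Lenvatinib (kinase inhibitors), Erastin (an inhibitor of cystine uptake), or Abemaciclib or Palbociclib (inhibitors of CDK4/6), each at a low inhibitory dose. T1 was the group grown without an inhibitor and T0 the baseline. The labels do not call T1 vehicle-treated, but the study names a DMSO group and every other group bears an inhibitor's name or T0. Each line had 16 libraries, 2 for each of 8 groups. RNA-seq compared 3 libraries of cells labelled Hep3B, with PSTK knocked out through a pair of guides (PSTK-KO, labelled PSTK-/-), with 3 control libraries. The control libraries are also labelled Hep3B. The labels give them as wild type and the study's methods as vehicle. Those methods call the RNA libraries biological replicates, and no source says whether the PSTK-KO cells were 1 clone. For the screens, nothing says whether the 2 libraries of a group came from separate cultures, so their tests see only library-to-library variation, some or all of which could be technical.

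Several properties of the libraries bear on the values below. The RNA libraries held 15404153 to 16851558 counts. PSTK, the kinase of selenocysteine synthesis, had 4.003, 4.34 and 5.07 CPM (counts scaled to library size) in the PSTK-KO libraries and 4.78, 5.09 and 4.14 CPM in control, a log2 fold change of -0.06 ± 0.18 (SE) with an adjusted p of 0.840 by edgeR, so its RNA level does not check the knockout. Markers of the liver were nearly absent from the libraries labelled Hep3B: 11 of 12 hepatocyte genes lay under 1 FPKM (fragments scaled to gene length and library size) in all 6. TTR was at 0 in all of them, AFP averaged 0.0251 FPKM in PSTK-KO and was listed at 0 in every control library, and ALB averaged 0.00623 FPKM in PSTK-KO and 0.523 FPKM in control. The 12 genes summed to between 2.42 and 2.97 FPKM in PSTK-KO, against 4.27 to 4.97 FPKM in control, mostly from HNF4A, which fell by 0.67 on the log2 scale (adjusted p = 3.39e-06 by edgeR). ALB was also called lower and FGB higher. Whether the cells were of the Hep3B line named in the labels cannot be told from such low liver markers, and was not tested. The 8 fibroblast markers summed to 4.90 to 5.28 FPKM in PSTK-KO and 6.97 to 7.80 FPKM in control, with COL1A1, DCN and PDGFRB called lower. Endothelial markers summed to 1.16 to 1.42 FPKM in PSTK-KO and 1.65 to 1.90 FPKM in control, and blood cell markers to 0.514 to 0.862 FPKM in PSTK-KO and 0.609 to 0.961 FPKM in control. Each endothelial and blood cell marker lay under 1 FPKM in all 6 libraries. The part of these differences in the results was not tested. In RNA from a whole culture, fewer cells of a kind and less RNA per cell cannot be told apart.

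The transcript levels of the 35 genes differed widely per length (the plot of FPKM by gene). ECH1, which moves double bonds during oxidation of unsaturated chains, had the highest level, 27.9 ± 1.82 FPKM in PSTK-KO and 32.0 ± 0.974 FPKM in control (SD, n = 3 each). GNPAT and FAR1, which provide the dihydroxyacetone phosphate ester and the fatty alcohol for ether lipids, followed at 21.9 ± 0.592 and 22.8 ± 0.559 FPKM in PSTK-KO, against 23.8 ± 1.87 and 22.4 ± 1.09 FPKM in control. The libraries of GNPAT and FAR1 overlapped within each group, so the order of these 2 genes is not fixed. ABCD3, CRAT, AGPS, SCP2 and SLC25A17 averaged between 11.8 and 18.3 FPKM in control. At the low end, FAR2, the other fatty acyl-CoA reductase, averaged 0.215 FPKM in PSTK-KO and 0.259 FPKM in control. ABCD2 had at most 1 count in any library. ACOX2, a bile acid and branched-chain oxidase, had 0.191, 0.183 and 0.0583 CPM in PSTK-KO and none in control, where 0 counts allow levels of up to 3 counts, or 0.194 CPM. Neither gene passed the filter on low counts, which left 33 members tested.

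**Figure D1:**
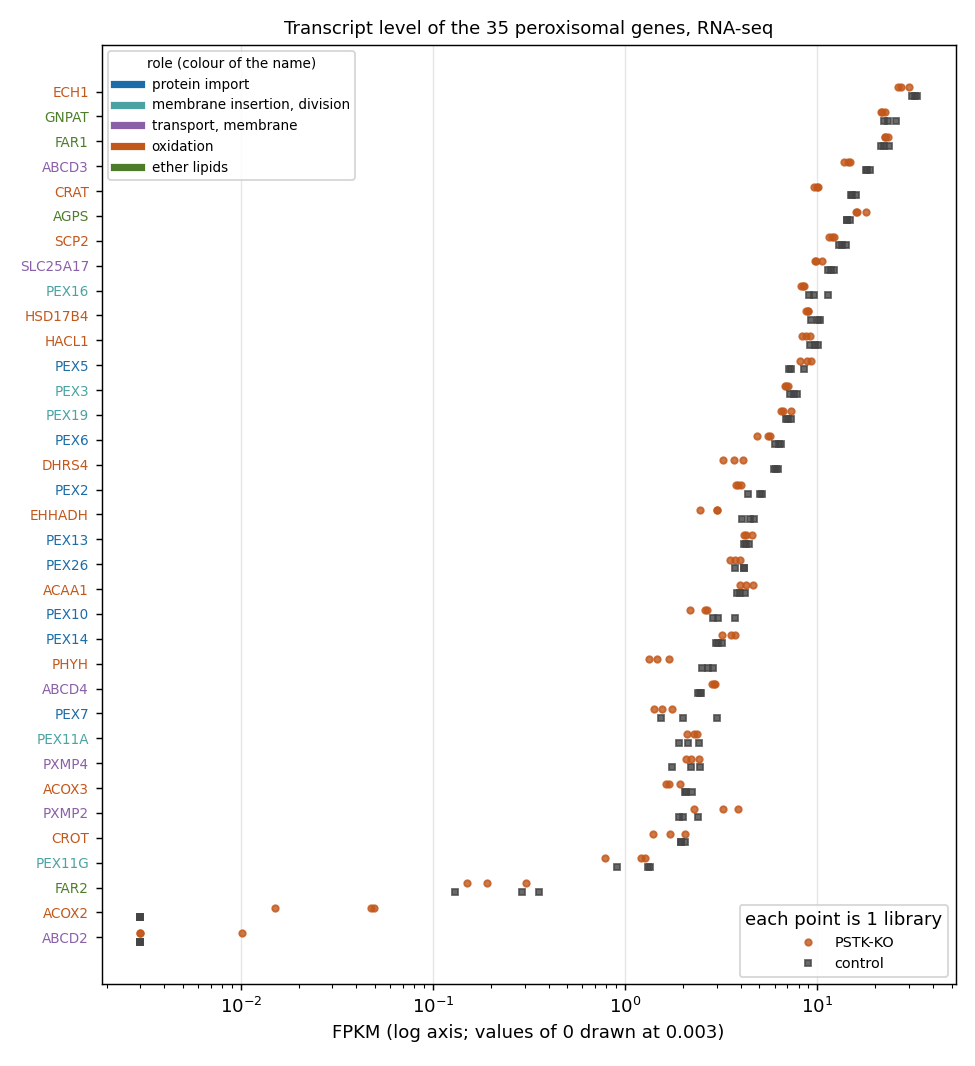
FPKM on a log axis (values of 0 drawn at 0.003) for each of the 35 genes, with a point for each PSTK-KO library above the points of the control libraries. The order runs from ECH1, with 32.0 FPKM on average in control, to ABCD2, which had at most 1 count in a library.

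With PSTK-KO, 12 of the 33 tested members fell and 4 rose at an adjusted p under 0.05, and 17 were not called. The fatty acid oxidation group held 7 of the 12 that fell. That group is a grouping by role and also takes in DHRS4, CRAT and CROT, which do not oxidize fatty acids themselves. Over all 15370 genes tested, 17.2% were called lower, 15.6% higher and 32.8% either way. The median log2 fold change was -0.16 over the members and 0.00 over all genes tested, and 23 of the 33 members had a negative value. The groups did not overlap for 18 of the 33 members, against 42.7% of all genes tested. These counts describe the list and were not tested as a set.

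**Figure D2:**
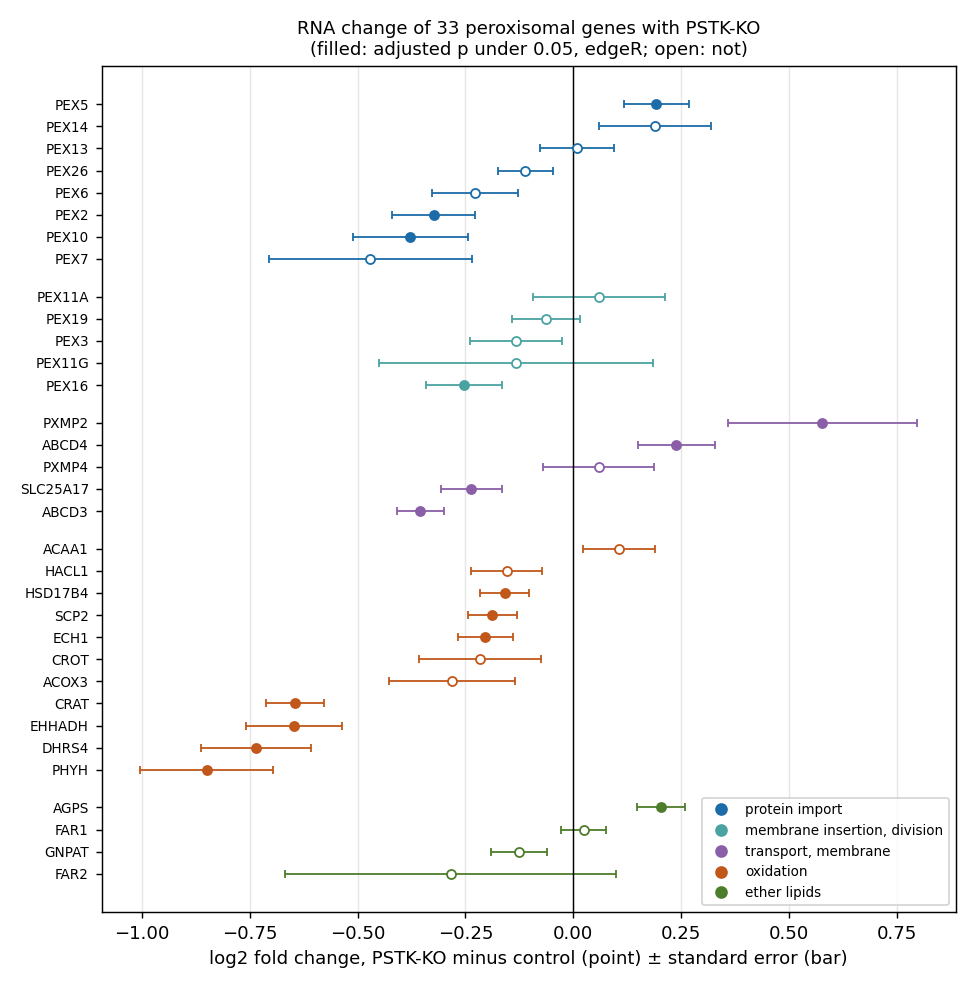
log2 fold change of RNA, PSTK-KO minus control (points), with its standard error (bars), for the 33 tested genes grouped by role; filled points passed an adjusted p of 0.05 by edgeR. The lowest 4 values, from -0.85 for PHYH to -0.65 for CRAT, all belong to the oxidation group, and the ether lipid genes lie between -0.28 and 0.20.

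Of the 11 tested oxidation genes, 7 fell and none rose (17.2% and 15.6% of all genes tested), with a median log2 fold change of -0.22. PHYH, the hydroxylase that starts alpha-oxidation of phytanic acid from the diet, fell by 0.85. It had 4.96, 4.53 and 5.77 CPM in PSTK-KO, against 9.75, 8.55 and 9.26 CPM in control (SE 0.15, adjusted p = 4.63e-05 by edgeR). Its highest PSTK-KO library lay well under its lowest control library, and its level fell by 44.5%. DHRS4, a carbonyl and retinal reductase of the peroxisome, had 9.53, 8.56 and 7.46 CPM in PSTK-KO, against 14.5, 14.2 and 13.9 CPM in control, a log2 fold change of -0.74 ± 0.13 (adjusted p = 2.50e-05 by edgeR). DHRS4 has close paralogs that counting could confuse with it: DHRS4L2 fell by 0.72 (adjusted p = 1.33e-04 by edgeR), and DHRS4L1 had no counts.

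EHHADH, the bifunctional hydratase and dehydrogenase of straight-chain oxidation and a known PPARA target, had 14.2, 14.2 and 11.6 CPM in PSTK-KO. In control it had 21.0, 22.3 and 19.3 CPM, so the groups were apart by more than their spread (log2 fold change -0.65 ± 0.11, adjusted p = 2.22e-05 by edgeR). CRAT transfers acetyl groups to carnitine so that they can leave peroxisomes and mitochondria. It had 38.4, 36.8 and 38.0 CPM in PSTK-KO, against 60.8, 57.6 and 58.7 CPM in control (log2 fold change -0.65 ± 0.07, adjusted p = 2.70e-09 by edgeR). CRAT had the smallest adjusted p of the members. PTPA, which overlaps it on the opposite strand with a mean of 209 CPM in PSTK-KO and 218 CPM in control, had a log2 fold change of -0.07 and was not called. PHYH, DHRS4 and CRAT were called lower under all 12 alternatives tried, and EHHADH under 11 of 12.

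The smaller falls in this group were those of ECH1 (-0.20), SCP2 (-0.19), the thiolase and sterol carrier of branched-chain oxidation, and HSD17B4 (-0.16), the bifunctional enzyme for branched chains. HSD17B4 had an adjusted p of 0.0319 by edgeR and was called in 3 of 12 alternatives. Leaving out any PSTK-KO library, or control replicate 2 or 3, ended its call (-0.16 to -0.13). SCP2 was not called without PSTK-KO replicate 1 (-0.17), nor ECH1 without PSTK-KO replicate 2 (-0.16) or 3 (-0.19). ACOX3 (-0.28), CROT (-0.22) and HACL1 (-0.15) were not called. ACAA1, the thiolase of the last step, was the only tested oxidation gene with a positive value, 0.11, and was not called.

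Among transporters and membrane proteins, 2 of the 5 tested genes fell and 2 rose (17.2% and 15.6% of all genes tested). ABCD3, an ABC transporter of the peroxisome membrane that carries branched and dicarboxylic acyl-CoA, had 110.5, 113 and 105 CPM in PSTK-KO. In control it had 136, 144 and 140.3 CPM, well apart from PSTK-KO (log2 fold change -0.35 ± 0.05, adjusted p = 3.89e-06 by edgeR). SLC25A17, a carrier of CoA, FAD and NAD, fell by 0.24, to 40.3 ± 1.90 CPM in PSTK-KO against 47.5 ± 1.63 CPM in control (SD, n = 3 each). It was not called without PSTK-KO replicate 3 (-0.21). ABCD4 rose by 0.24, to 25.5 ± 0.503 CPM in PSTK-KO against 21.6 ± 0.402 CPM in control (SD, n = 3 each), and PXMP2, known in mouse as a channel of the peroxisome membrane, rose by 0.58 with groups that overlapped. Both calls were near the threshold, with adjusted p of 0.0384 and 0.0411 by edgeR. ABCD4 was not called when any 1 of the 6 libraries was left out (0.23 to 0.26), and PXMP2 was not called without PSTK-KO replicate 2 (0.40) or 3 (0.55) or without control replicate 1 (0.54) or 3 (0.51).

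Among the 13 PEX genes, 3 fell and 1 rose, against 17.2% and 15.6% of all genes tested. PEX2 and PEX10 are ring-finger ubiquitin ligases that recycle the import receptors. PEX2 had 20.01, 19.3 and 18.8 CPM in PSTK-KO, against 21.7, 25.8 and 25.3 CPM in control (log2 fold change -0.32 ± 0.10, adjusted p = 0.00966 by edgeR). PEX10 had 8.32, 10.2 and 9.91 CPM in PSTK-KO, against 14.3, 11.6 and 11.1 CPM in control, where the gap between the groups was smaller than the spread within them (-0.38 ± 0.13, adjusted p = 0.0279 by edgeR). The call of PEX10 ended without PSTK-KO replicate 1 (-0.29) and without control replicate 1 (-0.26), and RER1, an abundant gene that overlaps PEX10 on the opposite strand, was also called lower (-0.18).

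PEX16, which anchors early membrane proteins, had 25.7, 25.01 and 26.0 CPM in PSTK-KO, against 34.5, 27.6 and 29.3 CPM in control. The PSTK-KO libraries were tight and the control libraries were not: without control replicate 1 the value was -0.15 in place of -0.25, and leaving out any PSTK-KO library (-0.26 to -0.24) also ended the call. PEX5, the main receptor of the import signal, rose by 0.19 with an adjusted p of 0.0496 by edgeR, and its groups overlapped. It was not called without PSTK-KO replicate 2 (0.15) or 3 (0.19), nor without control replicate 2 (0.14) or 3 (0.16). PEX7, the receptor of the other import signal, which AGPS and PHYH carry, had the lowest value of the PEX genes at -0.47 but also a standard error of 0.24, and was not called. PEX3, PEX6, PEX13, PEX14, PEX19, PEX26, PEX11A and PEX11G were not called, with values between -0.23 and 0.19.

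Of the 4 ether lipid genes, 1 rose and none fell, against 15.6% and 17.2% of all genes tested, and 2 had a negative value. With 4 genes, these counts cannot be told apart from those shares. AGPS, which exchanges the acyl chain for a fatty alcohol and so makes the ether bond, had 144, 161 and 146 CPM in PSTK-KO, against 129, 134 and 129 CPM in control (log2 fold change 0.20 ± 0.05, adjusted p = 0.00418 by edgeR). Without PSTK-KO replicate 2, the highest library, the value was 0.15 and the call ended. GNPAT had 70.3, 73.9 and 71.1 CPM in PSTK-KO and 72.7, 76.9 and 85.5 CPM in control, and was not called (-0.13 ± 0.06), although it was called without control replicate 1 (-0.18). FAR1, the rate-limiting reductase that makes the fatty alcohol, had 169.9, 177 and 170.0 CPM in PSTK-KO and 161, 178 and 169 CPM in control (0.02 ± 0.05). FAR2 had 1.65, 1.04 and 0.816 CPM in PSTK-KO and 1.95, 1.58 and 0.712 CPM in control. FAR1 and FAR2 thus showed no difference larger than the spread between libraries. On the opposite strand ERGIC2 overlaps FAR2, with a mean of 714 counts against 20.8 for FAR2. NFE2L2 overlaps AGPS likewise, with a mean of 1440 counts against 2277 for AGPS. With the strand setting unknown, the part of these overlaps in the values of FAR2 and AGPS was not tested. The difference between the oxidation and ether lipid groups was not tested.

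Promoters are shown for 3 members that fell and for AGPS, which rose, so that the letters upstream of genes that moved together can be read. Each run is the 250 bases before the transcription start from RefSeq on GRCh38.p14, 5′ to 3′ on the gene's strand. Capitals mark the half-site of nuclear receptors such as PPARA (AGGTCA), the CCAAT box and the GC box (GGGCGG), on either strand. PHYH lies at chr10:13299764-13300013 (minus strand), DHRS4 at chr14:23953520-23953769, ABCD3 at chr1:94418139-94418388 and AGPS at chr2:177392523-177392772 (plus strand).
PHYH: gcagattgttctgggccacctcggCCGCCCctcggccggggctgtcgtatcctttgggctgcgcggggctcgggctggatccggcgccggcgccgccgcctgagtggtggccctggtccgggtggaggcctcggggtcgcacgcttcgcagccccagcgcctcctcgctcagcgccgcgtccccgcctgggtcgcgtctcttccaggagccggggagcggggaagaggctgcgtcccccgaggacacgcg
DHRS4: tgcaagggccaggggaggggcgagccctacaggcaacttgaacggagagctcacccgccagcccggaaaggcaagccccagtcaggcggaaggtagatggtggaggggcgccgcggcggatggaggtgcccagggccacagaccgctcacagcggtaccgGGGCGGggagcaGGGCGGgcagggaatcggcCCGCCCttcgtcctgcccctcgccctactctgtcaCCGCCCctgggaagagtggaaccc
ABCD3: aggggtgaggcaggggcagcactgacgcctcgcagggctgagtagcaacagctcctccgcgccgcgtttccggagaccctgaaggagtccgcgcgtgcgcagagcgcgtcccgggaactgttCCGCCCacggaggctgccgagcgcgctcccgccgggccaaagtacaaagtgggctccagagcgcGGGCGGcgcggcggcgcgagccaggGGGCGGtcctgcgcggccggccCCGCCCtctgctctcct
AGPS: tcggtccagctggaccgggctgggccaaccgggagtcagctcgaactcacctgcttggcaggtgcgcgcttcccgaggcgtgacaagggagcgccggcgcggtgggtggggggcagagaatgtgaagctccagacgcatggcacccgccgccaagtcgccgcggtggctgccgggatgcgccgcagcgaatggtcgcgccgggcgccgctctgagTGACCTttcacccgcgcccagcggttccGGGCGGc
The 3 members that fell each hold at least 1 GC box, with 4 in DHRS4 and 4 in ABCD3, and no AGGTCA, while AGPS holds 1 AGGTCA and 1 GC box. Of the 28 members with a promoter entry used here, 24 hold a GC box (85.7%, against 46.2% of 27305 genes with an entry), 11 hold CCAAT (39.3%, against 37.0%) and 3 hold AGGTCA (10.7%, against 14.6%). All 8 members called lower that have an entry hold a GC box and none of them AGGTCA. PEX2, EHHADH, CRAT and ECH1, also called lower, had no entry used here and were not searched. An exact direct repeat of the AGGTCA half-site spaced by 1 base (DR1), the element bound by PPARA, was found in none of these 28 members. It was found in 0.022% of all genes, so it is too rare for its absence from 28 promoters to tell anything about the members. The core TGACNNNGC of the antioxidant response element was in 5 members (17.9%, against 13.2%) and the E-box CACGTG in 3 (10.7%, against 7.73%). Matches were counted on both strands at any start listed for a gene, and a half-site within a DR1 counted for both. A match is a run of letters, not a shown binding site.

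Genes outside the list were counted for context, beside 17.2% of all genes tested that fell and 15.6% that rose. Of 48 other peroxisome genes, 39 were tested, and 18 fell and 2 rose, with a median of -0.22. IDH2, the isocitrate dehydrogenase that makes NADPH mostly in mitochondria, had 10.9, 11.4 and 13.2 CPM in PSTK-KO and 35.5, 34.6 and 38.3 CPM in control (log2 fold change -1.61 ± 0.10, adjusted p = 9.18e-15 by edgeR). MVK, mevalonate kinase, fell by 0.81 (adjusted p = 1.71e-12 by edgeR). PPARA itself fell by 0.27 and its coactivator PPARGC1A by 0.74. Of 16 PPARA targets outside the peroxisome, 12 were tested, and 7 fell and 1 rose. PDK4, the kinase that restrains pyruvate dehydrogenase, fell by 2.02 and CREB3L3, a liver transcription factor, by 1.02. Of 11 genes of later plasmalogen steps, 9 were tested, 1 rose and 2 fell: SELENOI, the selenoprotein that adds ethanolamine, rose by 0.30, and LPCAT3 fell by 0.27. Of the 3 hepatocyte markers tested, HNF4A and ALB fell and FGB rose in the same libraries, and their part in these values was not tested.

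In the screens, knockout of a gene that cells need under an inhibitor depletes its guides. NormZ sums the guides' log2 ratios to T1, each scaled by the spread of guides of like abundance, so that a value below 0 marks a gene whose guides were less abundant with the inhibitor (a resister), and one above 0 a sensitizer. Its p-values come from the spread over genes and guides rather than over cultures. The 6 inhibitors of a line share their T1 libraries, so values of 1 gene across a row are not independent. The libraries held 11198022 to 46376708 guide counts, 77.2% to 97.4% of nonzero counts were even numbers, and the libraries of a group were alike: their chi-square per guide was 2.49 to 3.68 for counts as deposited, or 1.24 to 1.84 for halved counts, where pure counting noise gives 1, except for Erastin in SNU-398 at 31.1. There, replicate 2 correlated with the T1 libraries of Hep3B at 0.954 and with those of SNU-398 at 0.950 over 64186 guides, where replicate 1 had 0.880 and 0.949. This library thus stood apart from its line, and for the members' Erastin values named in SNU-398 and the counts of members called there by edgeR, values without it are also given. Of the members' guides, 40 of 128 in Hep3B (31.2%) and 30 of 132 in SNU-398 (22.7%) had no counts in either T1 library, against 36.3% and 22.8% of all guides. In each line, 31 of the 35 genes had over 50% of their T1 counts on 1 guide.

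Over the 6 Hep3B screens, 7 of 210 member values passed p under 0.01 as resisters (3.33%, against 1.76% of all gene values) and 1 as a sensitizer (0.476%, against 0.827%). In SNU-398, 5 passed as resisters (2.38%, against 1.6%) and 3 as sensitizers (1.43%, against 0.852%). By screen of Hep3B, resisters were 1 of 35 members with Sorafenib (1.66% of all genes), 2 with Regorafenib (1.85%), 2 with Lenvatinib (1.83%), 1 with Erastin (1.65%) and 1 with Palbociclib (1.93%), and the sensitizer came with Abemaciclib (0.882%). In SNU-398, 1 of 35 was a resister with Sorafenib (1.8%), 1 with Regorafenib (1.59%), 1 with Erastin (1.58%) and 2 with Abemaciclib (1.49%). The sensitizers there came 1 each with Regorafenib (0.688%), Lenvatinib (0.815%) and Abemaciclib (0.937%). The median NormZ of the members was 0.00 in Hep3B and 0.01 in SNU-398. Of the 7 resister values in Hep3B, 5 were those of ABCD4. No member passed a false discovery rate of 0.05 in any of the 12 screens, the smallest being 0.0656 for ABCD4 with Regorafenib.

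ABCD4 is named with the peroxisomal transporters but is known to work in lysosomes, where it exports cobalamin (vitamin B12) with LMBRD1. Its NormZ in Hep3B was -3.60 with Sorafenib, -3.68 with Regorafenib, -3.09 with Lenvatinib, -3.78 with Erastin and -3.04 with Palbociclib. Abemaciclib, at -2.30, lay just outside the p threshold of 0.01. Its rank from the lowest was 16 of 18029 genes with Erastin and 89 with Palbociclib. In SNU-398 its values were 1.45, -0.11, 0.32, -0.23 and 0.92 with the same inhibitors in that order and 1.22 with Abemaciclib, and -0.07 with Erastin without Erastin replicate 2. LMBRD1 was called in no screen: its NormZ in Hep3B lay between -0.52 with Erastin and 2.01 with Regorafenib, and in SNU-398 between -1.16 with Abemaciclib and 0.45 with Erastin. MTR, an enzyme that uses cobalamin, had -2.62 with Sorafenib and -2.82 with Palbociclib in Hep3B, both called as resister. Its other Hep3B values ran from -2.30 with Regorafenib to -0.84 with Erastin and were not called. In SNU-398 MTR lay between -1.66 with Lenvatinib and -0.15 with Abemaciclib and was not called. A link between MTR and ABCD4 was not tested. The test of the difference between the lines passed no adjusted threshold: for ABCD4 with Sorafenib it was -5.05 with an adjusted p of 0.371, and the smallest adjusted p over all members and inhibitors was 0.329, for PXMP4 with Abemaciclib.

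The 4 guides of ABCD4 can be followed library by library as counts per 1e+07 (values of replicates 1 and 2). Guide 1 in Hep3B had 164 and 160.1 with Sorafenib, 118 and 122 with Regorafenib, 184 and 177 with Lenvatinib, 93.0 and 74.1 with Erastin, 88.3 and 77.5 with Abemaciclib and 187 and 189 with Palbociclib, against 379 and 338 in T1 and 318 and 335 in T0. Guide 2 had 0.892 and 4.55 with Sorafenib, 9.11 and 21.5 with Regorafenib, 2.81 and 4.95 with Lenvatinib, 25.9 and 20.5 with Erastin, 11.6 and 20.2 with Abemaciclib and 20.1 and 11.6 with Palbociclib, against 42.4 and 38.1 in T1 and 99.8 and 88.5 in T0. For both guides, every inhibitor library lay below both T1 libraries, by most for guide 2 with Sorafenib and Lenvatinib. Guide 3, which carried 81.7% of the gene's T1 counts, had 1305 and 1371 with Sorafenib, 1616 and 1639.6 with Regorafenib, 1725 and 1771 with Lenvatinib, 1419 and 1350.0 with Erastin, 1889 and 2009.5 with Abemaciclib and 1659 and 1767 with Palbociclib, against 2112 and 2138 in T1 and 1632 and 1616 in T0. Guide 4 had 8.92 and 4.55 with Sorafenib, 59.2 and 47.0 with Regorafenib, 7.504 and 9.90 with Lenvatinib, 56.3 and 69.4 with Erastin, 34.7 and 29.5 with Abemaciclib and 22.2 and 12.5 with Palbociclib, against 66.9 and 69.6 in T1 and 68.7 and 71.7 in T0. Guide 3 fell by less on the log2 scale than guide 1 in every screen, and guide 4 with Erastin overlapped T1. Guide 3 was higher in T1 than in T0. With Regorafenib guide 3 was at its T0 level, and with Lenvatinib, Abemaciclib and Palbociclib it lay above both T0 libraries. Only with Sorafenib and Erastin did guide 3 lie below T0.

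All 4 guides were thus below the T1 library of their number in both replicates with each of the 6 inhibitors in Hep3B. In SNU-398 guide 3 had 2049 and 2253 per 1e+07 with Sorafenib and 1685 and 1589 with Regorafenib, against 1847 and 1711 in T1 and 1618 and 1499 in T0, and guide 1 had 289 and 277 with Sorafenib, against 286 and 225 in T1. No inhibitor had more than 2 of the 4 guides down in both replicates there. Of 9 alternatives, the call held in all for Sorafenib, Regorafenib and Erastin, and for Lenvatinib (-2.20) and Palbociclib (-2.22) it ended when guides were limited to a mean T1 count of at least 30. Without guide 3, the most abundant, ABCD4 was called in 5 screens, with NormZ between -2.95 for Regorafenib and -2.37 for Palbociclib, and was not called with Abemaciclib (-2.25). In the RNA-seq the same gene was low, at 2.89 FPKM in PSTK-KO and 2.44 FPKM in control, and its partner LMBRD1 was not called (-0.22).

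**Figure D3:**
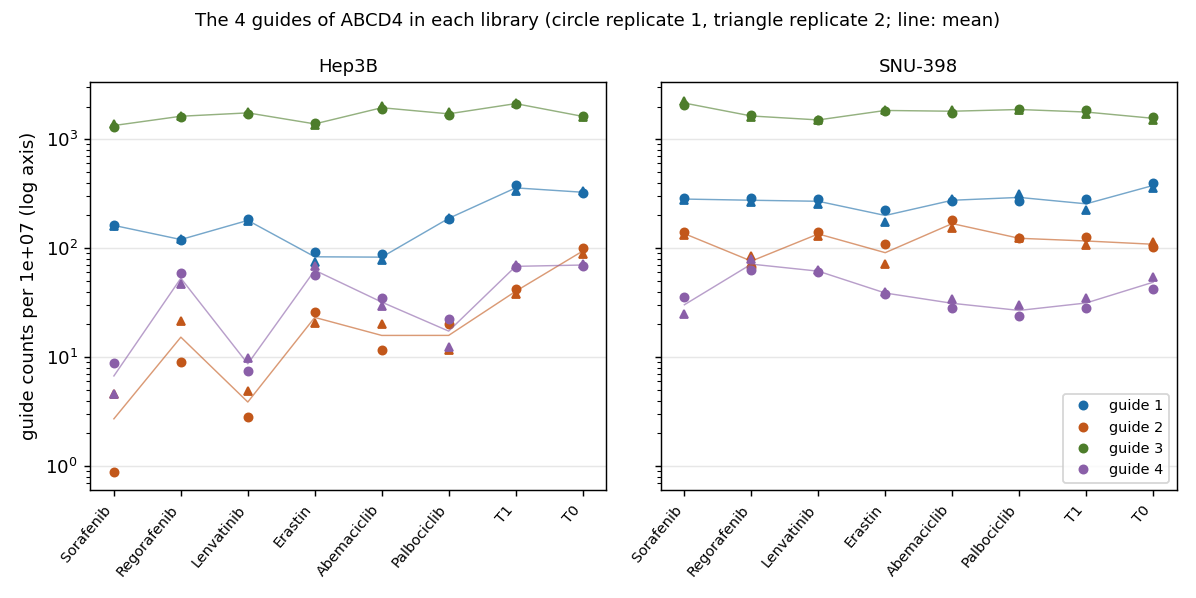
Counts per 1e+07 on a log axis for the 4 guides of ABCD4 in each library of Hep3B and SNU-398 (circles replicate 1, triangles replicate 2, lines the mean of a group). In Hep3B guide 1 runs from 88.3 and 77.5 with Abemaciclib up to 187 and 189 with Palbociclib, below its T1 values of 379 and 338, and in SNU-398 the groups lie close together.

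The other calls in Hep3B were single. PEX11A, which elongates the membrane before division, had a NormZ of -3.32 with Lenvatinib. Its guide 2 had log2 ratios of -3.55 and -3.48 to T1, guide 4 of -2.40 and -2.28 and guide 3 of -0.81 and -0.69, while guide 1 had no counts in T1. Without guide 4, the most abundant, NormZ was -1.90 and the call ended. ACAA1 had -2.37 with Regorafenib and narrowly missed the threshold with Abemaciclib (-2.31) and Sorafenib (-2.23), from 2 guides with near-equal counts. That call held in 6 of 9 alternatives and ended, among others, without replicate 1 (-2.02) or without T1 replicate 1 (-2.25). FAR2 was the only sensitizer, with 2.63 for Abemaciclib, where guide 4 carried 98.4% of its T1 counts, and without that guide NormZ was 1.32. The other ether lipid genes were not called in any screen: AGPS lay between -1.71 and -0.43 in Hep3B and reached 2.30 with Erastin in SNU-398 (2.18 without Erastin replicate 2), and GNPAT lay between -1.82 and 0.67 over both lines.

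In SNU-398 the calls fell on different genes with different inhibitors. PEX16 had -2.73 with Sorafenib, from guide 2 (log2 ratios -3.44 and -3.66) and guide 1 (-2.04 and -1.45), and without its most abundant guide NormZ was -0.83. PEX5 had -2.68 with Regorafenib, where all 4 guides were lower in both replicates, with guide 4 at -2.09 and -1.87. Its call held in 8 of 10 alternatives and ended, among others, without the most abundant guide (-2.11). With Abemaciclib, PXMP4, a membrane protein of unsettled function, had -3.26, and CROT, which makes medium-chain acylcarnitines for export, -2.64. PXMP4 lost its call without its most abundant guide (-1.94). CROT kept its call in 7 of 10 alternatives. Among others, CROT was not called without its most abundant guide (-2.16) or without replicate 2 (-2.16).

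SCP2 had -3.04 with Erastin in SNU-398, and -3.23 without Erastin replicate 2, the library that stood apart. Without replicate 1, which leaves that library alone, the value was -1.89 and the call ended. Of 10 alternatives, the call of SCP2 held in 8. PXMP2 was not called with both libraries, and without Erastin replicate 2 it had -2.61 and was called. The sensitizer values were 2.76 for ABCD2 with Regorafenib, 2.58 for PEX26, the membrane anchor of the PEX6 complex, with Lenvatinib (2.32 and not called without its most abundant guide), and 2.33 for CRAT with Abemaciclib. ABCD2 rested on guides with mean T1 counts of at most 5.79 per 1e+07, so that few T1 reads set its ratio. CRAT, just inside the threshold, kept its call in 4 of 10 alternatives. Among others, it was not called without replicate 1 (2.12), replicate 2 (2.13) or T1 replicate 1 (1.92).

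Counts summed over a gene's guides were also tested with edgeR, which uses the spread between the libraries of a group. In Hep3B, 149 of 210 member tests against T1 passed (71.0%, against 70.2% of all gene tests), 53 higher and 96 lower. In SNU-398, 54 of 210 passed (25.7%, against 28.3%), 24 higher and 30 lower. The split by direction over all genes is not given here, so these splits do not show a property of the members. By inhibitor, the members called in Hep3B were 26 of 35 with Sorafenib (76.9% of all genes), 19 with Regorafenib (61.8%), 28 with Lenvatinib (72.7%), 27 with Erastin (68.7%), 26 with Abemaciclib (75.8%) and 23 with Palbociclib (65.6%). In SNU-398 they were 14 with Sorafenib (38.3%), 12 with Regorafenib (36.8%), 18 with Lenvatinib (44.3%), 8 with Erastin (28.5%), 0 with Abemaciclib (4.77%, 11 members at an unadjusted p under 0.05 by edgeR and 3 by NormZ) and 2 with Palbociclib (17.4%). The control guides, which target LacZ, luciferase or EGFP, were called at 53.6% to 73.8% in Hep3B, so this share says little about a gene. Without Erastin replicate 2, which widens the spread of its line, 121 of the SNU-398 tests passed: 26 with Sorafenib (56.7% of all genes), 24 with Regorafenib (55.9%), 24 with Lenvatinib (61.1%), 16 with Erastin (50.2%), 13 with Abemaciclib (27.8%) and 18 with Palbociclib (40.7%). Without T1 replicate 1 the number was 35, and without T1 replicate 2 it was 36. In Hep3B ABCD4 had log2 fold changes from -0.65 ± 0.04 with Erastin to -0.13 ± 0.04 with Abemaciclib, all lower, and in SNU-398 it was called only with Sorafenib, where it was higher (0.28 ± 0.06, adjusted p = 0.00140 by edgeR). Without Erastin replicate 2 it was also called with Lenvatinib, where it was lower (-0.14 ± 0.04), and with Palbociclib, where it was higher (0.11 ± 0.04).

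Growth for 14 days without an inhibitor was read from T1 against T0. In Hep3B 13 of 35 members rose and 9 fell (62.9%, against 62.6% of all genes). In SNU-398 4 rose and 2 fell (17.1%, against 13.1%). Here too the split by direction over all genes is not given. The largest fall in Hep3B was that of DHRS4, with 0.999 and 0.779 CPM in T1 against 6.17 and 5.58 CPM in T0 (log2 fold change -2.68 ± 0.44 by edgeR). Its T1 values are 26 and 10 counts. PEX13, a docking subunit of the import pore, had 0.231 and 0.156 CPM in T1 against 0.887 and 1.16 CPM in T0, which are 6 and 2 counts in T1. Its level was low already at T0, so its fall rests on few reads. PEX11G, a division factor, rose by 1.48, with 24.3 and 25.7 CPM in T1 against 8.14 and 9.94 CPM in T0, and 91.9% of its T1 counts were on 1 guide. HSD17B4 rose by 1.33 and PHYH by 1.26, with 100% of the T1 counts of HSD17B4 and 95.3% of those of PHYH on 1 guide. ABCD2 fell in both lines, to 2.00 and 1.71 CPM in Hep3B T1 against 4.31 and 4.02 CPM in T0, and to 0.724 and 0.859 CPM in SNU-398 T1 against 3.83 and 4.08 CPM in T0. The SNU-398 T1 values are 16 and 10 counts. ABCD2 is the only member named by its size of change in both lines, and its RNA was at most 1 count in the RNA libraries labelled Hep3B. By NormZ of T1 against T0, PEX6, part of the ATPase that extracts import receptors, passed p under 0.01 in Hep3B with -2.49 (1.05% of all genes passed below 0), and PEX3, which receives early membrane proteins, in SNU-398 with 2.75 (1.01% passed above 0). Without Erastin replicate 2, which enters the fit of SNU-398 only through the spread, 18 of 35 members passed there (39.3% of all genes) in place of 6, and leaving out any 1 T1 or T0 library left 2.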

How the data were processed

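Guide libraries of Hep3B and SNU-398 and RNA libraries labelled Hep3B were analysed. In the screen tables the authors deposited counts per guide, made with Bowtie2 (version and build of guide positions not given in the sources used here). For RNA, gene counts were deposited. The submitters' processing notes list HISAT2 2.0.5 as well as featureCounts 1.5.0-p3, and no strand setting is given. The labels name mm9, while identifiers and positions are human: those of all 35 members overlap the GRCh38.p14 gene of the same symbol. The authors deposited FPKM values made from these counts and gene length, and signal columns that are their group means of counts divided by size factors. The deposited log2 fold changes, p-values and adjusted p-values are the authors' own DESeq2 comparison and were not used.

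Members and lists were chosen with earlier results of these data known. RNA counts, and guide counts summed per gene in a fit of 16 libraries per line, were tested in R 4.3.3 with edgeR 4.0.16 (TMM, filterByExpr, quasi-likelihood test, Benjamini-Hochberg over all genes tested, adjusted p under 0.05). NormZ followed DrugZ in Python 3.11.15: counts scaled to 1e+07, a pseudocount of 5, windows of 1000 guides, and each inhibitor library against the T1 library of the same number. Members were given library by library when they were the 8 of largest absolute log2 fold change among those called with groups that did not overlap and at least 1 CPM, the called member of smallest adjusted p in a role, or an ether lipid gene. All members past p under 0.01 by NormZ were named, with guide counts where 2 or more screens of a line passed, as were T1 against T0 calls of at least 1 on the log2 scale. From each list outside the members the 2 genes of smallest adjusted p were named. PPARA, PPARGC1A, LMBRD1, MTR and overlapping or paralogous genes were named after values were seen. DESeq2 1.42.0, limma 3.58.1, other scalings, filters and pseudocounts, and left-out libraries were alternatives. On simulated RNA counts of 15370 genes, edgeR called 88% of genes changed by 1 and 76% of genes changed by 0.5 on the log2 scale. Floors cover counting error only, while the SE and SD also hold the variation between libraries. Guide sequences are not analysed here.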

Additional observations from a re-analysis of the deposited data

How the results depend on the processing

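Against 12 members called lower in RNA, the number called lower was 8 to 12 with a library left out, 11 with no filter, 9 by DESeq2, 5 by limma on log2(FPKM + 1) and 3 on log2(FPKM + 0.1). Against 4 called higher, the number called higher was 0 to 3 with a library left out, 2 with no filter, 1 by DESeq2, 1 by limma on log2(FPKM + 1) and 0 on log2(FPKM + 0.1). These are counts and need not be the same genes. The cause was not tested. With a library left out FAR1 ranged over -0.0088 to 0.062 and FAR2 over -0.61 to 0.014, both with the sign turned without control replicate 1 and never called.

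By NormZ at p under 0.05, 19 resisters and 14 sensitizers passed in Hep3B and 13 and 14 in SNU-398. The share of all gene values at that threshold is not given here, so these counts do not show a property of the members. Leaving out a replicate gave 6 to 10 resisters and 1 to 2 sensitizers in Hep3B and 5 to 6 and 2 to 5 in SNU-398. With guides of a mean T1 count of at least 30, 2 sensitizers passed in Hep3B and 0 in SNU-398. Without each gene's most abundant guide, 2 resisters passed in SNU-398. For summed guides without that guide, 34 of the 210 inhibitor tests passed in SNU-398, and for T1 against T0 12 members in Hep3B and 2 in SNU-398. With a library left out, 123 to 136 inhibitor tests passed in Hep3B and 35 to 51 in SNU-398, or 121 without Erastin replicate 2. For T1 against T0 the numbers were 15 to 19 in Hep3B and 2 in SNU-398, or 18 without Erastin replicate 2. NormZ of T1 against T0 passed 1 member in each line.

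Replicate numbers did not pair the libraries: deviations of same-numbered RNA libraries correlated at 0.026, 0.067 and -0.003. With the replicate block, 12 members were lower and 4 higher in RNA, 149 and 56 inhibitor tests passed in Hep3B and SNU-398, and 21 and 6 members for T1 against T0. NormZ with no replicate block gave 7 and 1 calls in Hep3B and 5 and 3 in SNU-398, as with it. For guides with few T1 reads, depth limits the ratio, and a member without a call may still differ.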

Other observations

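Other lists were counted in the screens by NormZ at p under 0.01, as values with no test. The 48 other peroxisome genes gave 10 resister and 5 sensitizer values of 288 in Hep3B (3.47% and 1.74%) and 7 and 1 of 288 in SNU-398 (2.43% and 0.347%). Few genes carried these values: SOD2, the superoxide dismutase of mitochondria, gave 5 of the 10 resister values in Hep3B and 5 of the 7 in SNU-398, PMVK, a kinase of the mevalonate pathway, gave 3 more in Hep3B, and EPHX2, an epoxide hydrolase, gave all 5 sensitizer values there. The SNU-398 values include Erastin replicate 2. The 16 PPARA targets outside the peroxisome gave 7 resister values of 96 in Hep3B (7.29%) and 3 of 96 in SNU-398 (3.13%). The 11 genes of later plasmalogen steps gave none of 66 in either line, at a threshold that 1.76% of all gene values in Hep3B and 1.6% in SNU-398 passed as resisters. GPX4, the peroxidase that guards membranes against lipid peroxidation, fell by 0.32 in RNA with PSTK-KO (adjusted p = 1.06e-05 by edgeR), to 222 ± 12.3 CPM in PSTK-KO against 277 ± 12.6 CPM in control (SD, n = 3 each). SELENOI, also a selenoprotein, rose, to 209 ± 11.5 CPM in PSTK-KO against 170.2 ± 13.5 CPM in control (SD, n = 3 each).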
